A study of Mus musculus with 12 samples.

Results

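The genes described here encode enzymes and structural proteins of the apical brush border of kidney tubule cells: the peptidases Anpep, Mep1a, Mep1b, Dpp4, Ggt1 and Dpep1, the actin-bundling protein Vil1 and the PDZ scaffold genes Pdzk1 and Slc9a3r1. They were taken by symbol from the deposited count and FPKM matrices, and all 9 were found among 24421 gene symbols, in 12 transcript rows. Dpp4, Ggt1 and Pdzk1 had 2 rows each, of which the row with the higher total count was used. The 12 libraries were made from whole kidneys of male C57BL/6 mice at 6 weeks of age, in 4 groups of 3. WT baseline and Tet2-/- baseline mice had no operation. WT IR and Tet2-/- IR mice had the right renal pedicle clamped for 60 min and the left kidney removed, and tissue was taken 24 h after reperfusion. Tet2 encodes a 5-methylcytosine dioxygenase, and the Tet2-/- mice were bred from Tet2+/- parents, so the allele is carried by every cell type, blood cells included. No sham-operated libraries were analysed here, so ischemia-reperfusion cannot be told apart from surgery and the loss of the other kidney.

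The brush border is the carpet of microvilli on the luminal face of proximal tubule cells. Its peptidases face the filtrate and cut filtered peptides and glutathione into amino acids and dipeptides that nearby transporters take up. Villin bundles the actin core of each microvillus, and the PDZ proteins tie transporters such as the sodium-phosphate cotransporter to ezrin and the actin core. Loss of the brush border is a textbook feature of ischemic tubular injury.

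The libraries held 51007362 to 107969879 counts over 1 row per gene, and libraries of the same group correlated at r = 0.969 to 0.990. The smallest member count in a single library was 279.5, for Mep1b in a Tet2-/- IR library. The Tet2 transcript was not lower in the baseline libraries labelled Tet2-/- (9.24, 16.6 and 10.3 FPKM) than in WT baseline (9.15, 6.25 and 7.33 FPKM), with a log2 fold change of 0.76 (SE 0.24, edgeR adjusted p = 0.320). The part of the gene that was removed is not given in the sources used here, so this transcript level neither settles nor checks the labels, and directions between genotypes are given for the libraries as labelled. Summed FPKM of 7 adipocyte genes was 40.2 and 126 in WT baseline replicates 2 and 3 and 163 in Tet2-/- IR replicate 3, against 0.497 to 10.3 in the other 9 libraries.

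Among the 9 genes, WT baseline levels spanned 8.06 ± 2.24 FPKM for Dpp4 to 664 ± 164 FPKM for Ggt1 (mean ± SD, n = 3). FPKM divides by transcript length, so these levels can be set side by side. Ggt1, which encodes the gamma-glutamyltransferase that opens the breakdown of glutathione, ranked 48 of all 24421 genes, Mep1a ranked 59 and Pdzk1 ranked 67. The ranges of these 3 neighbours overlapped, so their order was not resolved. Slc9a3r1 (184 ± 23.3 FPKM), Mep1b (103 ± 13.9 FPKM) and Vil1 (55.8 ± 10.5 FPKM) followed with no overlap between neighbours, and Anpep (41.5 ± 0.197 FPKM) overlapped Dpep1 (37.5 ± 11.3 FPKM). The same order of means held in the Tet2-/- baseline libraries. In the Tet2-/- IR libraries Mep1b was the lowest of the 9, at 2.48 ± 2.01 FPKM.

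**Figure D1:**
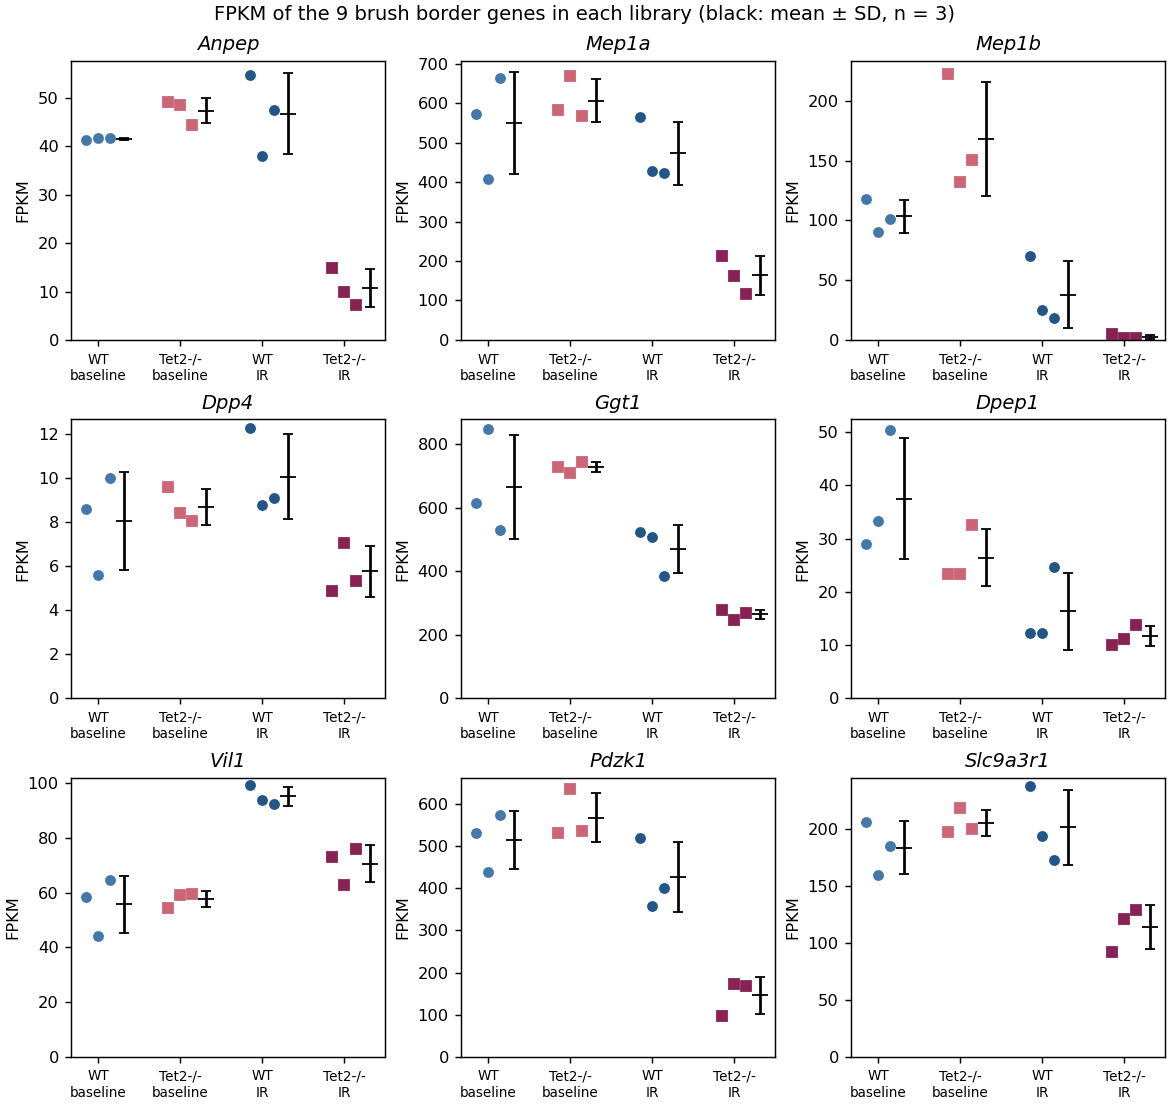
FPKM (vertical axes, each starting at 0 with its own scale) of the 9 genes in the 12 libraries, with circles for WT, squares for the Tet2-/- labelled libraries and black marks for the group mean ± SD (n = 3). Anpep, Mep1a, Mep1b, Ggt1, Pdzk1 and Slc9a3r1 are lower in all 3 Tet2-/- IR libraries than in every other library. The share of all genes with that pattern was not counted. Vil1 is highest in the 3 WT IR libraries (92.3 to 99.3 FPKM).

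Promoters of 3 members are shown because these genes fell after IR in the Tet2-/- labelled libraries and their promoters differ in base composition. RefSeq windows of 300 bases, from 250 before to 50 after an annotated start, were matched for 8 of the 9 members in 12 windows, on GRCm38.p6 and not on the mm9 build of the counts. HNF4 factors are known regulators of proximal tubule genes, and their element was among those searched on both strands. The 9-letter HNF4 element CAAAGTCCA, in capitals below, occurred in 1 of the 12 windows, against 0.475% of all 32851 windows, and began 14 bases downstream of the start of Pdzk1.
Pdzk1, chr3:96829815-96830114, plus strand: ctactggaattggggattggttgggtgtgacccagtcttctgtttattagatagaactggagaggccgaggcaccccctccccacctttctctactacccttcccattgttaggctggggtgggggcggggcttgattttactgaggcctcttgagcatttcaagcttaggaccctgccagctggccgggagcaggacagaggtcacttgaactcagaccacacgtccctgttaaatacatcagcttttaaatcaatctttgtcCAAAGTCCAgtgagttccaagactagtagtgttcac
Anpep, chr7:79848161-79848460, minus strand: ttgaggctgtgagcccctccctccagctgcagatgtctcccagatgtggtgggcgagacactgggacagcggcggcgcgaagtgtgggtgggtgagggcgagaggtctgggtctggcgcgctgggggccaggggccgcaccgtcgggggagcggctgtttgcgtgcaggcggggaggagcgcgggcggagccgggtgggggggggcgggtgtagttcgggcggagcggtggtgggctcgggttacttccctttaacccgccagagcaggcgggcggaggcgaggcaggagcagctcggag
Mep1a, chr17:43502724-43503023, minus strand: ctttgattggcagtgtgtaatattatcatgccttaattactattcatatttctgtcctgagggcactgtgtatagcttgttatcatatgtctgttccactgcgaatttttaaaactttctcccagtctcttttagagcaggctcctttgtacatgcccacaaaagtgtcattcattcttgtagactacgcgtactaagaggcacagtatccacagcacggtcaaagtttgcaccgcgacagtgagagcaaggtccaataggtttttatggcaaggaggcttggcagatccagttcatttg
The Anpep window had 28 CpG pairs and 72.3% G or C, the Mep1a window 6 pairs and 42.3%, and the printed Pdzk1 window 4 pairs and 51.0%, against a median of 7 pairs and 52.7% over all windows. The other Pdzk1 window (chr3:96831921-96832220) had 7 pairs and 50.7%, and the HNF4 element was not in it. A match or its absence describes these letters only and says nothing about binding.

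The first question was how WT kidneys changed after IR. No member was called in WT kidneys in either direction by edgeR at an adjusted p under 0.05 and a change over 1 on the log2 scale, against 0.887% of 16015 genes called lower and 1.46% called higher. Dropping the fold limit added no member, against 1.14% of genes lower and 1.88% higher. At an unadjusted p under 0.05, 3 members were lower and 1 was higher, against 11.3% of genes lower and 11.4% higher. The clearest values were those of the meprin beta gene Mep1b and the dipeptidase gene Dpep1, both with lower values, and of Vil1, with higher values.

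Mep1b (NM_008586), the gene for the membrane-bound beta subunit of the metalloendopeptidase meprin, had 118, 90.6 and 101 FPKM in WT baseline and 70.3, 24.9 and 18.4 FPKM in WT IR. The groups did not overlap, with WT IR replicate 1 well above the other 2 WT IR libraries. The log2 fold change was -1.54 (SE 0.46, adjusted p = 0.119). Dpep1 (NM_007876, chr8:125710135-125725713 on mm9, plus strand), which encodes the dipeptidase that splits cysteinylglycine and leukotriene D4, had 28.9, 33.3 and 50.3 FPKM in WT baseline and 12.2, 12.2 and 24.7 FPKM in WT IR. These groups did not overlap either, and the log2 fold change was -1.23 (SE 0.38, adjusted p = 0.124). Libraries with the same replicate number deviated together in this comparison, and with the replicate number as a block edgeR called both genes lower, at -1.76 (adjusted p = 0.0195) for Mep1b and -1.30 (adjusted p = 0.00647) for Dpep1. That fit called 3.49% of all genes lower and 2.67% higher. DESeq2 called the same 2 members lower, and 3.07% of all genes lower and 3.06% higher. Without WT IR replicate 1, Mep1b alone was called (-2.30, adjusted p = 0.00893), beside 1.13% of all genes lower and 2.24% higher. Leaving out WT baseline replicates 2 and 3, high in adipocyte genes, left 1 library in that group, and that fit called 0.00605% of all genes lower and 0% higher, so the absence of member calls in it says nothing about the members.

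Vil1 (NM_009509, chr1:74455958-74482134, plus strand) had 58.5, 44.3 and 64.7 FPKM in WT baseline and 99.3, 94.0 and 92.3 FPKM in WT IR. All 3 IR libraries were higher, with a log2 fold change of 0.70 (SE 0.17, 95% interval 0.29 to 1.12, adjusted p = 0.0802). Ggt1 (NM_008116, chr10:75036240-75048936, plus strand) had 614, 847 and 531 FPKM in WT baseline and 522, 506 and 384 FPKM in WT IR, with a log2 fold change of -0.56 (SE 0.21, adjusted p = 0.176). Non-overlap by itself is common in this comparison: on counts scaled by TMM, 14.5% of all genes lay wholly below WT baseline and 14.8% wholly above, and among the members Mep1b, Ggt1 and Dpep1 lay below and Vil1 above. Anpep, Mep1a, Dpp4, Pdzk1 and Slc9a3r1 overlapped between the 2 groups, with log2 fold changes of -0.34 to 0.25 and adjusted p of 0.372 to 0.847.

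The same question in the Tet2-/- labelled kidneys gave another picture. By edgeR, 7 of the 9 members fell after IR and none rose, against 11.6% of 16358 genes called lower and 12.7% called higher. The 7 were 5 of the 6 peptidase genes and both PDZ scaffold genes. At an unadjusted p under 0.05, where 24.3% of genes were lower and 27.5% higher, no member was higher, and DESeq2 called the same 7 lower and none higher, with 12.1% of all genes lower and 12.8% higher. Without the fold limit 8 members were lower, against 20.3% of genes lower and 22.9% higher. The eighth, Dpp4, passed on the row used here and not on its other row, whose values are given with that gene. On the TMM-scaled counts the same 8 lay wholly below baseline and none above, against 27.2% and 29.5% of genes. Without Tet2-/- IR replicate 3, high in adipocyte genes, 7 were again called, beside 11.9% of all genes lower and 13.6% higher. In whole tissue, fewer brush border cells and less RNA per cell cannot be told apart.

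Mep1b had the largest change of the 9, from 222, 132 and 151 FPKM at Tet2-/- baseline to 4.80, 1.35 and 1.30 FPKM in Tet2-/- IR. The highest IR library was lower than the lowest baseline library by a wide margin, and the fitted level fell 80.4-fold (log2 fold change -6.33, SE 0.64, adjusted p = 0.000395). Mep1a (NM_008585, chr17:43611278-43639722, minus strand), which encodes the alpha subunit that can also be secreted, went from 583, 669 and 567 FPKM to 213, 161 and 116 FPKM. Its log2 fold change was -2.15 (SE 0.26, adjusted p = 0.000766), a 4.45-fold fall.

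Anpep (NM_008486, chr7:86966689-86987238, minus strand), the gene for aminopeptidase N, which removes single residues from the amino end of peptides, went from 49.1, 48.5 and 44.4 FPKM to 14.9, 9.91 and 7.20 FPKM. The log2 fold change was -2.41 (SE 0.25, adjusted p = 0.000442). Ggt1 went from 728, 710 and 744 FPKM to 277, 247 and 267 FPKM, with little spread within either group and a log2 fold change of -1.72 (SE 0.19, adjusted p = 0.000595). Dpep1, which acts after Ggt1 in glutathione breakdown, went from 23.3, 23.4 and 32.6 FPKM to 10.1, 11.2 and 13.8 FPKM. Its log2 fold change was -1.43 (SE 0.21, adjusted p = 0.00166). Dpp4 (NM_010074, chr2:62168130-62250288, minus strand), a serine protease that removes dipeptides, was the peptidase gene that was not called. It had 9.61, 8.40 and 8.06 FPKM at baseline and 4.89, 7.06 and 5.33 FPKM after IR, a log2 fold change of -0.86 (SE 0.14, adjusted p = 0.00249) that did not reach the fold limit. Its other row (NM_001159543) changed by -0.22 there, with an edgeR adjusted p of 0.316.

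Pdzk1 (NM_021517, chr3:96633988-96674849, plus strand), which has the HNF4 element shown above in 1 of its 2 promoter windows, went from 531, 635 and 537 FPKM to 95.8, 174 and 169 FPKM. The log2 fold change was -2.22 (SE 0.28, adjusted p = 0.000851). Slc9a3r1 (NM_012030, chr11:115024655-115042492, plus strand), the gene for NHERF1, which binds ezrin, went from 197, 218 and 200 FPKM to 92.4, 122 and 129 FPKM. Its log2 fold change of -1.10 (SE 0.18, adjusted p = 0.00287) was just past the fold limit. The call was lost in 4 of 18 alternatives, at -0.98 without Tet2-/- IR replicate 1, at -0.88 with library sizes in place of TMM and at -0.85 and -0.86 with limma on log2(FPKM + 1) and log2(FPKM + 0.1). Library sizes alone moved the median of all genes from 0.04 to 0.27 in this comparison and changed the calls over all genes from 1896 lower and 2078 higher to 1397 lower and 2860 higher.

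Vil1 stood apart from the others. It had 54.3, 59.1 and 59.7 FPKM at Tet2-/- baseline and 72.9, 63.0 and 76.1 FPKM in Tet2-/- IR. The FPKM did not overlap, but the TMM-scaled counts did, and the log2 fold change was 0.04 (SE 0.16, 95% interval -0.34 to 0.42, adjusted p = 0.851). Without Tet2-/- baseline replicate 1 or without Tet2-/- IR replicate 3 its sign turned.

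**Figure D2:**
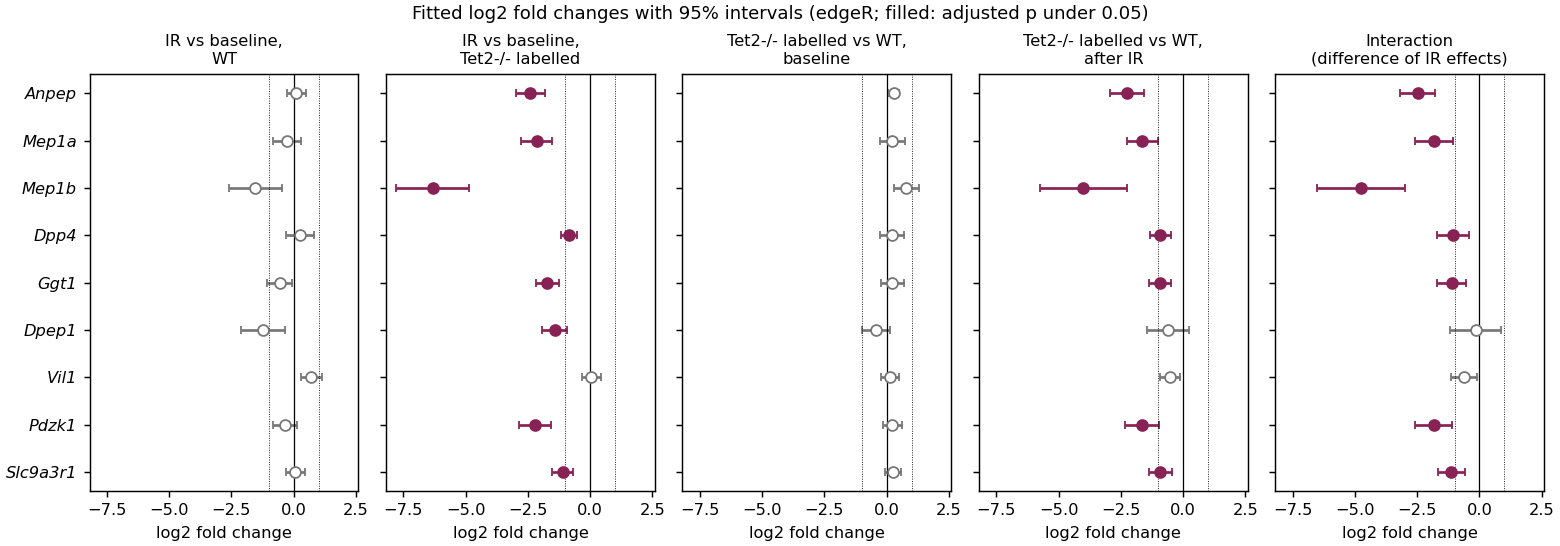
Log2 fold changes from edgeR (horizontal axes) with 95% intervals for the 9 genes in the 4 comparisons and the interaction, with filled points at an adjusted p under 0.05 and dotted lines at -1 and 1. In the comparison of IR with baseline in the Tet2-/- labelled kidneys 8 points are filled, from -0.86 for Dpp4 to -6.33 for Mep1b, while none is filled in WT or at baseline.

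Between genotypes at baseline, no member was called by edgeR or by DESeq2 in either direction, and over all 16086 genes edgeR called 0% lower and 0.0124% higher, and DESeq2 1.85% lower and 0.143% higher. At an unadjusted p under 0.05, 2 members, Anpep and Mep1b, were higher in the Tet2-/- labelled libraries and none was lower, against 3.56% of genes higher and 8.2% lower. Mep1b was at 103 ± 13.9 FPKM in WT and 168 ± 47.7 FPKM in the Tet2-/- labelled libraries, a log2 fold change of 0.79 (SE 0.21, 95% interval 0.30 to 1.29, adjusted p = 0.265). Anpep was at 41.5 ± 0.197 and 47.3 ± 2.55 FPKM, a log2 fold change of 0.28 (SE 0.10, adjusted p = 0.367). Anpep, Mep1b and Slc9a3r1 lay wholly above WT on the TMM-scaled counts, as did 7.93% of all genes, and none lay below, against 10.8%. The widest 95% intervals among the 9, those of Mep1b and Dpep1, bounded the differences between -0.98 and 1.29 on the log2 scale.

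The comparison of the genotypes after IR asks how the injured kidneys differed. By edgeR, 4 of the 9 members were lower in the Tet2-/- labelled libraries and none was higher, against 3.85% of 16186 genes called lower and 2.30% called higher. The 4 were Anpep, both meprin genes and Pdzk1. Without the fold limit 7 members had an adjusted p under 0.05 and lower values, against 6.17% of all genes lower and 3.51% higher. No member was higher at an unadjusted p under 0.05, which 13.9% of genes were (15% were lower), and DESeq2 called the same 4 lower and none higher, with 5.43% of all genes lower and 4.79% higher.

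Mep1b, at 37.9 ± 28.3 FPKM in WT IR and 2.48 ± 2.01 FPKM in Tet2-/- IR, was 16.0-fold lower (log2 fold change -4.00, SE 0.73, adjusted p = 0.0234). Anpep had 54.8, 38.0 and 47.4 FPKM in WT IR against 14.9, 9.91 and 7.20 FPKM. It was 4.72-fold lower (log2 fold change -2.24, SE 0.29, adjusted p = 0.0123). Mep1a had 564, 429 and 424 FPKM in WT IR against 213, 161 and 116 FPKM, and its groups were far apart, as were those of Anpep. Its log2 fold change was -1.63 (SE 0.27, adjusted p = 0.0187). Pdzk1 had 520, 359 and 401 FPKM in WT IR against 95.8, 174 and 169 FPKM, a log2 fold change of -1.64 (SE 0.29, adjusted p = 0.0218).

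Dpp4 (-0.91, adjusted p = 0.0268), Ggt1 (-0.92, adjusted p = 0.0313) and Slc9a3r1 (-0.91, adjusted p = 0.0357) passed the adjusted p in edgeR and not the fold limit. The other row of Dpp4 reached it, at -1.03 (edgeR adjusted p = 0.0186). Dpp4 had 12.3, 8.77 and 9.12 FPKM in WT IR, all above the highest Tet2-/- IR library at 7.06 FPKM. Slc9a3r1 had 238, 194 and 173 FPKM in WT IR, again all above the highest Tet2-/- IR library at 129 FPKM. Vil1 differed by -0.52 (SE 0.17, adjusted p = 0.0951) with no overlap, and Dpep1 by -0.61 (SE 0.35, 95% interval -1.45 to 0.22, adjusted p = 0.298) with overlap. For Dpep1 the values were already low in WT IR, at 16.4 ± 7.22 FPKM against 11.7 ± 1.92 FPKM.

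On the TMM-scaled counts 8 members, all but Dpep1, lay wholly below WT IR, as did 18.5% of all genes, and none lay above, against 17.5%. The number called depended on single libraries. It was 1 (Anpep) without WT IR replicate 1, 2 (Anpep and Mep1b) without WT IR replicate 3 and 2 (Anpep and Dpp4) without Tet2-/- IR replicate 2. Those 3 fits called 1.39%, 1.77% and 2.21% of all genes lower. Without Tet2-/- IR replicate 3, the library high in adipocyte genes, 4 were called, with Slc9a3r1 in place of Mep1b, beside 2.68% of all genes lower and 1.27% higher. Mep1b was at -3.72 there (edgeR adjusted p = 0.0626). Anpep was called in each of the 6 fits that left out a library, with a log2 fold change of -2.57 to -2.05 and an adjusted p of at most 0.0412.

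**Figure D3:**
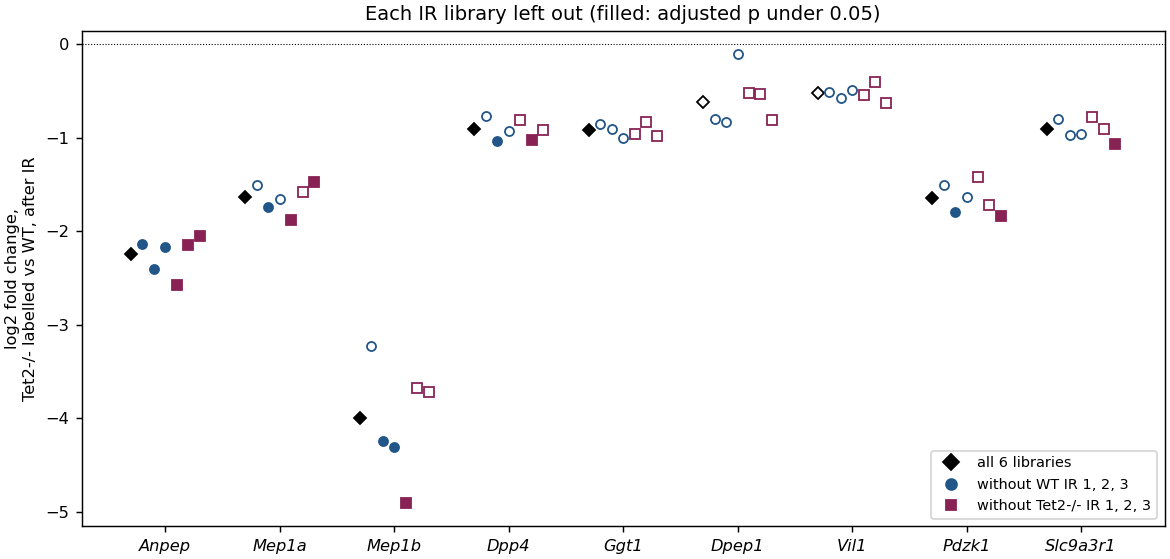
Log2 fold change after IR, Tet2-/- labelled against WT (vertical axis), from all 6 libraries (diamonds) and with each WT IR library (circles) or Tet2-/- IR library (squares) left out, filled at an adjusted p under 0.05. The values stay below 0 for all 9 genes, and Anpep is filled in all 7 fits.

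Whether the IR effect itself differed between the labelled genotypes was tested with an interaction term in a fit of the 12 libraries, where calls needed an adjusted p under 0.05 and no fold limit. The IR effect was lower in the Tet2-/- labelled kidneys for 7 of the 9 members and higher for none, against 5.38% of 16741 genes called lower and 3.78% higher. No member was higher at an unadjusted p under 0.05, which 14.6% of genes were (12.6% were lower), and DESeq2 called the same 7, with 9.5% of all genes lower and 7.17% higher. The median interaction of all genes was 0.10, against -1.13 for the members. Mep1b had the most negative value (-4.74, SE 0.80, adjusted p = 0.00775), then Anpep (-2.48, SE 0.32, adjusted p = 0.00380), Pdzk1 (-1.84, SE 0.34) and Mep1a (-1.83, SE 0.36), the last with an edgeR adjusted p of 0.0124. Slc9a3r1 (-1.13), Ggt1 (-1.11) and Dpp4 (-1.07) followed, with edgeR adjusted p of 0.0179, 0.0283 and 0.0440. The calls of Dpp4 and Ggt1 were lost in 14 and 8 of 24 alternatives, while those of the other 5 were lost in 2.

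Those 2 alternatives removed WT baseline replicates 2 and 3, the first together and the second along with Tet2-/- IR replicate 3, the 3 libraries high in adipocyte genes. With them removed no member was called (edgeR adjusted p of at least 0.0683), although the log2 values stayed close, at -2.54 and -2.35 for Anpep and -4.61 and -4.33 for Mep1b. Of all genes, 0.0464% and 0.0175% were called lower, so these fits called almost nothing. At an unadjusted p under 0.05, 8 members were lower in both, against 10% and 12.6% of genes. These fits leave 1 library in WT baseline, which is assumed to vary like the other groups. The part of the adipocyte genes in the result was not tested further. Dpep1 (-0.16, 95% interval -1.18 to 0.86, adjusted p = 0.862) changed sign between alternatives, and Vil1 was at -0.62 (SE 0.24, adjusted p = 0.125).

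The meprin subunits form homo- and hetero-oligomers, so their levels were also compared within each library. The ratio of Mep1a to Mep1b FPKM was 4.85, 4.51 and 6.56 in WT baseline and 2.62, 5.07 and 3.76 in Tet2-/- baseline, and it overlapped between them. It was 8.03, 17.2 and 23.0 in WT IR and 44.5, 120 and 88.8 in Tet2-/- IR. Each of the IR groups lay wholly above its baseline, and Tet2-/- IR wholly above WT IR. The ratio of Pdzk1 to Slc9a3r1 went the other way, from 2.81 ± 0.267 in WT baseline and 2.76 ± 0.129 in Tet2-/- baseline to 2.11 ± 0.241 in WT IR and 1.26 ± 0.200 in Tet2-/- IR (n = 3 each). Exact two-sided permutation tests of 3 against 3 cannot go below p = 0.1, which 6 of the 8 ratio comparisons reached (0.133 after adjustment over the 8). The 2 baseline comparisons gave exact p = 0.3 and 0.8.

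**Figure D4:**
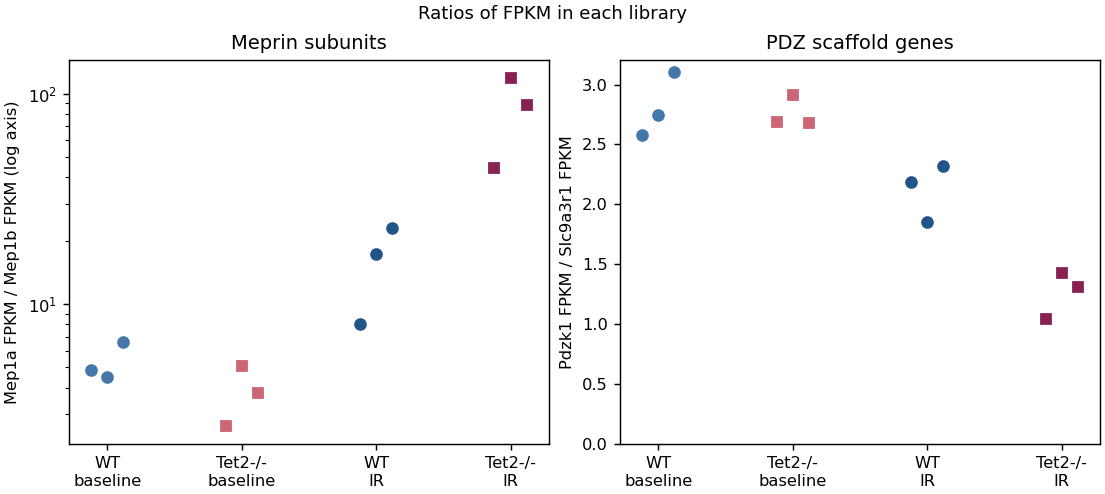
Ratio of Mep1a to Mep1b FPKM (left, log axis) and of Pdzk1 to Slc9a3r1 FPKM (right, axis from 0) in each of the 12 libraries by group. The meprin ratio is between 2.62 and 6.56 in the 6 baseline libraries and between 44.5 and 120 in the 3 Tet2-/- IR libraries, and the scaffold ratio is lowest in Tet2-/- IR.

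Other brush border genes were read from 3 lists. Of 22 other apical hydrolases, 20 were tested in the Tet2-/- labelled kidneys after IR, where 6 fell and 2 rose. Ace, which converts angiotensin I, fell by 2.07 on the log2 scale, the nucleotide pyrophosphatase gene Enpp3 fell by 1.84 and the trehalase gene Treh fell by 1.45, while Dpep2, a dipeptidase gene related to Dpep1 and known from immune cells, rose to a mean of 1.67 FPKM (edgeR adjusted p = 0.00226). The list's median was -0.23, with 11.6% of all genes called lower and 12.7% higher, against -1.72 for the members and 0.04 for all genes tested. After IR, between genotypes, 3 were lower, among them Enpp3 (-1.85) and Ace (-1.19), and 2 were higher, with a median of -0.58, beside 3.85% of all genes lower and 2.30% higher. The members' median there was -0.92 and that of all genes 0.04.

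Of 27 genes of microvillar structure, 5 fell and 6 rose after IR in the Tet2-/- labelled kidneys, with a median of -0.06, beside the same 11.6% and 12.7% of all genes. The microvillar adhesion gene Tmigd1 fell by 2.15, the NHERF family gene Pdzd3 by 1.15 and the intermicrovillar link gene Ush1c by 1.06, while the ezrin relative Msn rose by 2.36, the actin nucleator gene Cobl by 1.37 and Epb41l3 by 1.33. Between genotypes after IR, Cdhr2 (-1.29), Tmigd1 (-1.18) and Pdzd3 (-1.16) were lower and Msn (1.30) was higher, with a list median of -0.42, beside 3.85% and 2.30% of all genes. Vil1, the actin bundler among the members, had a change of 0.04 after IR in these kidneys, close to the median of this list.

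Of 16 apical transporter genes listed as partners of the PDZ scaffold, 7 fell and 3 rose after IR in the Tet2-/- labelled kidneys, beside 11.6% of all genes lower and 12.7% higher. The lactate transporter gene Slc5a8 fell by 3.36, and the sodium-phosphate cotransporter genes Slc34a3 fell by 3.09 and Slc34a1 fell by 3.08. Cftr rose by 2.42, Abcc4 by 1.27 and Abcc2 by 1.20. Between genotypes after IR, where 3.85% of all genes were lower and 2.30% higher, 5 were lower and none higher, with Slc5a8 at -2.71, the peptide transporter gene Slc15a2 at -1.96 and Slc34a1 at -1.74. The list's median there was -0.87, against -0.92 for the members, while after IR in the Tet2-/- labelled kidneys it was -0.97, against -1.72. In WT kidneys after IR, where edgeR called 0.887% of all genes lower and 1.46% higher, no gene of the 3 lists was called. Without the fold limit 1 hydrolase was higher and 1 transporter lower there, against 1.14% of genes lower and 1.88% higher.

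**Figure D5:**
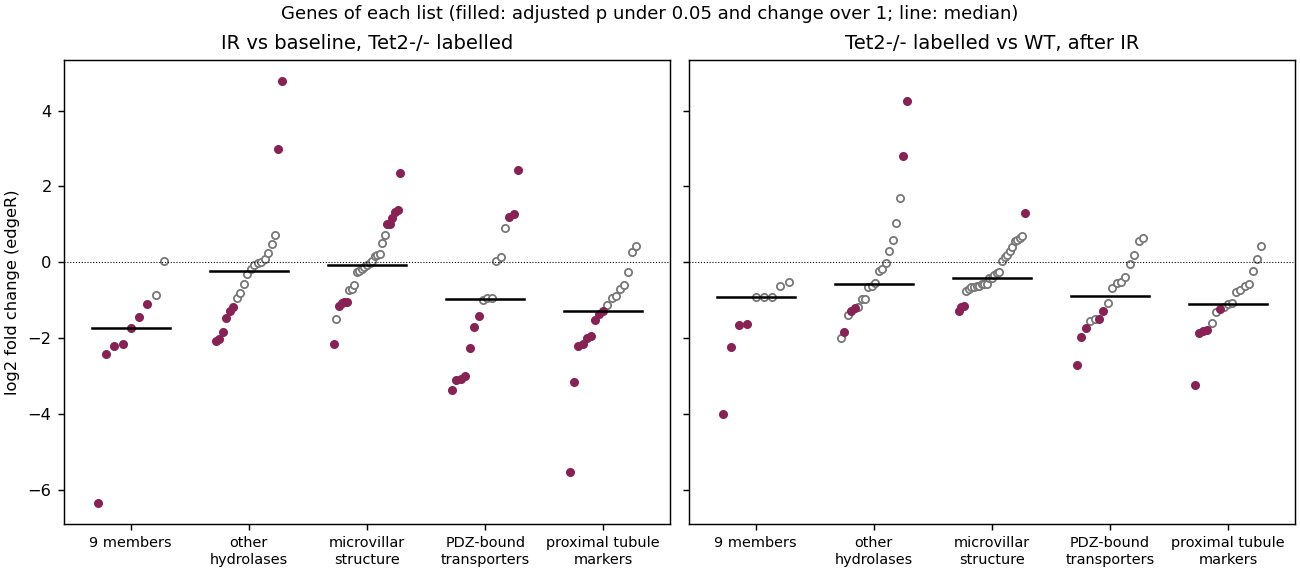
Log2 fold changes from edgeR (vertical axis) of the 9 members, the 3 other brush border lists and 17 proximal tubule markers, for IR against baseline in the Tet2-/- labelled kidneys (left) and for the genotypes after IR (right), with called genes filled and a line at each list's median. The members' medians are -1.72 and -0.92, and the microvillar structure list, with called genes on both sides, has medians of -0.06 and -0.42.

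Markers of other cell types were read in the same libraries. Summed FPKM of the 9 members was 1574 to 2093 in WT IR and 785 to 796 in Tet2-/- IR, and that of 17 proximal tubule markers was 3410 to 4580 and 1501 to 2666. Of those 17 markers, 9 fell after IR in the Tet2-/- labelled kidneys, where 11.6% of all genes were called lower, and 2 in WT, where 0.887% were. Summed FPKM of 7 tubule injury genes was 1647 to 7849 in WT IR and 11972 to 25907 in Tet2-/- IR, of 7 neutrophil genes 3.84 to 8.70 and 62.0 to 115, of 6 macrophage genes 23.9 to 33.4 and 48.0 to 73.1, and of 4 podocyte genes 3.10 to 24.3 and 40.7 to 85.4. Summed FPKM of the 7 injury genes was 244 to 515 in WT baseline and 219 to 342 in Tet2-/- baseline. Mpo, listed among the neutrophil genes but transcribed mainly in their precursors, stayed under 0.1 FPKM in all 12 libraries. After IR in the Tet2-/- labelled kidneys, 6 of 7 injury, 5 of 5 tested neutrophil and 4 of 4 podocyte genes were called higher. So were 3 of 6 macrophage and 2 of 3 tested adipocyte genes, against 12.7% of all genes. The filter on low counts passed 5 of 7 neutrophil genes here and 3 at baseline. Part of the 5 therefore passed only through the Tet2-/- IR libraries, so 5 of 5 is partly set by the filter. Called lower were 1 of 6 macrophage, 2 of 7 T cell, 1 of 6 collecting duct and 2 of 5 thick ascending limb genes. Of all genes, 11.6% were called lower. The summed FPKM of the 5 thick ascending limb genes was 390 in Tet2-/- IR replicate 3. It was 2139 and 2629 in the other 2 libraries of its group and 830 to 2252 in the other 9. In WT kidneys after IR, 5 of 7 injury and 2 of 6 macrophage genes were called higher, against 1.46% of all genes. Between genotypes after IR, 4 of 5 tested neutrophil and 2 of 6 macrophage genes were called higher, against 2.30% of all genes. The filter bears on these 5 in the same way. None of the injury or podocyte genes was called there. All 5 tested neutrophil, 7 injury and 4 podocyte genes had positive log2 values between genotypes after IR, with medians of 3.85, 1.69 and 1.74. So did all 5 endothelium and 4 tested adipocyte genes, 5 of 6 macrophage genes and 8648 of all 16186 genes tested. Values were negative for 15 of 17 proximal tubule, 5 of 6 collecting duct and 4 of 5 thick ascending limb genes. The part of these shifts in the members' values was not tested. Of 6 enterocyte genes, which mark the other tissue rich in brush border, Sis and Cdx2 were listed at 0 in all 12 libraries and Apoa4, an apolipoprotein gene, was the 1 that passed the filter on low counts. Apoa4 had 67.3, 54.5 and 114 FPKM in WT IR and 17.5, 3.34 and 3.78 FPKM in Tet2-/- IR. By edgeR it rose after IR in WT kidneys (3.20, adjusted p = 0.0262), was lower between genotypes after IR (-3.39, adjusted p = 0.0360) and was lower in the interaction (-4.01, adjusted p = 0.0259), and its part in the members' values was not tested. Hnf4a differed by -0.78 between genotypes after IR (edgeR adjusted p = 0.0407), short of the fold limit.

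Across the 12 libraries, Pdzk1, Mep1a, Anpep and Slc9a3r1 followed the mean of the other members most closely (Pearson r of 0.95, 0.95, 0.94 and 0.91 on log2(FPKM + 1)). Vil1 (r = -0.20) and Dpep1 (r = 0.54) followed it least. The genes outside the list most like the members' mean, among 12205 genes with a mean of at least 1 FPKM, were Slc3a1 (r = 0.99), which encodes a subunit of the apical cystine transporter, Slc6a20b (r = 0.99), Prss8 (r = 0.99), Mettl7a1 (r = 0.99) and Gk (r = 0.98). Slc3a1 averaged 255, 262, 256 and 75.8 FPKM in WT baseline, Tet2-/- baseline, WT IR and Tet2-/- IR. The 12 points fall into 4 groups and share the Tet2-/- IR libraries at the low end, so these r values describe these libraries and carry no test.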

How the data were processed

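RNA-seq libraries of 12 mouse kidneys were analysed in 4 groups of 3. The authors used STAR for alignment to mm9 and HOMER for counting on RefSeq transcripts, and deposited the resulting expected counts as they were, not normalized. The authors also deposited the FPKM of the same transcripts with transcript lengths. Of the count values, 38.7% are not whole, because the counts rise in steps of 0.5, so they were rounded before edgeR and DESeq2, where the tests had assumed whole counts. Of the 24421 symbols, 5569 had more than 1 of the 34600 rows, and the row with the highest total was used. The rows of Dpp4, Ggt1 and Pdzk1 overlap in position, so reads can count toward both rows of a gene. Total counts of the 2 rows were 1304328 and 1299367 for Ggt1 and 1149049 and 1148067 for Pdzk1. For Dpp4 they were 48582.5 and 21147.5.

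Each comparison was fitted on its 6 libraries in edgeR with TMM and filterByExpr. The quasi-likelihood test gave p-values, which were adjusted by Benjamini-Hochberg across every tested gene (R 4.3.3, edgeR 4.0.16, limma 3.58.1, DESeq2 1.42.0, Python 3.11.15, scipy 1.17.1, matplotlib 3.10.9). Calls needed an adjusted p under 0.05 together with a log2 fold change beyond 1 in size. The interaction, fitted on 12 libraries, needed the adjusted p alone. The fits were tested on simulated counts first. Libraries numbered alike deviated together between baseline and IR (WT correlations 0.380, 0.363 and 0.358, Tet2-/- labelled correlations 0.135, 0.359 and 0.222), so the block by replicate number counts as a pairing there. What the numbers stand for is not given in the sources used here. Between genotypes not every pair had a correlation over 0.1 (baseline -0.186, -0.167 and 0.071, after IR 0.00257, 0.230 and 0.320), so the numbers were not read as a pairing there.

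The members and lists were chosen with earlier results of these data known. Named genes are all 9 members, at most 3 called genes in each direction with a mean of at least 1 FPKM from each of 3 other brush border lists, the 5 genes most like the members' mean, and Tet2. Hnf4a, Mpo, Sis, Cdx2 and Apoa4 were named after their values were seen. Library totals of 51007362 to 107969879 counts set the depth. Alternatives were other normalizations, filters, tools and pseudocounts, the replicate block and each library left out. A further 2 were chosen after seeing the data: the other row of Dpp4, Ggt1 and Pdzk1, and the interaction without the 3 libraries high in adipocyte genes. Promoter windows are from RefSeq (GRCm38.p6). Member windows on chromosome 18, where Mep1b lies, were left out of the search, and no protein sequence was used. Some genes and motifs that these rules name are not reported here.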

Additional observations from a re-analysis of the deposited data

Results flagged for a closer look

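The IR effect differed between the labelled genotypes, by edgeR's interaction test over 12 libraries, for 7 members. The difference on the log2 scale (Tet2-/- labelled minus WT) was -2.48 for Anpep, -1.83 for Mep1a, -4.74 for Mep1b, -1.07 for Dpp4, -1.11 for Ggt1, -1.84 for Pdzk1 and -1.13 for Slc9a3r1. The adjusted p ran from 0.00380 for Anpep to 0.0440 for Dpp4. Over all genes 5.38% were lower and 3.78% higher by the same test. No member was called without both WT baseline replicates 2 and 3, or without those and Tet2-/- IR replicate 3, in fits with 1 WT baseline library that called 0.0464% and 0.0175% of all genes lower.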

How the results depend on the processing

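With 3 libraries a group, calls near a threshold turned on single libraries, and the adjusted p measures the spread between these mice only. The baseline mice had no operation, the Tet2 FPKM of the 3 baseline libraries labelled Tet2-/- lay above, not below, those of WT (edgeR adjusted p = 0.320), and the HOMER counts come in steps of 0.5. The cause of the changes below was not tested.

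In WT kidneys after IR the number of members called lower was 2 with DESeq2 and 2 with the replicate block. Of all genes, 3.07% and 3.49% were lower there. The number was 0 to 1 with a library left out, against 0.222% to 1.13% of all genes. The replicate block, read as a pairing between baseline and IR, left the 7 lower members of the Tet2-/- labelled kidneys and the 7 of the interaction as they were. Those fits called 12.6% and 6.07% of all genes lower. In the Tet2-/- labelled kidneys after IR the number called lower was 6 to 8 over 18 alternatives, which called 4.99% to 20.3% of all genes lower. Between genotypes after IR, where not every pair of like-numbered libraries correlated over 0.1, the block gave the same 4 and none at baseline. Those block fits called 3.81% of all genes lower after IR and 0.0124% at baseline. Between genotypes after IR the number called was 7 without the fold limit, against 6.17% of all genes lower. It was 1 to 5 with a library left out, against 1.39% to 3.78%. In the interaction it was 0 without both WT baseline replicates 2 and 3, 0 without the 3 libraries high in adipocyte genes, and 5 to 7 with a library left out, where 2.86% to 6.27% of all genes were lower.

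In these alternatives the sign turned for Slc9a3r1, Vil1, Dpp4 and Dpep1. For Slc9a3r1 in WT after IR the log2 fold change was -0.0084 without WT baseline replicate 2, -0.042 without WT IR replicate 1 and -0.11 without both WT baseline replicates 2 and 3, and ran up to 0.15 with a library left out. For Vil1 in the Tet2-/- labelled kidneys it was -0.013 without baseline replicate 1 and -0.066 without IR replicate 3, and ran up to 0.18 with a library left out and 0.29 over all 18 alternatives. At baseline it was -0.0083 for Dpp4 and -0.0048 for Vil1 without WT baseline replicate 2, with upper ends of 0.39 and 0.27 with a library left out, and -0.20 for the other row of Dpp4. For Dpep1 in the interaction it was 0.076 and 0.066 with limma at pseudocounts of 1 and 0.1, 0.00092 without WT baseline replicate 1 and 0.35 without WT IR replicate 3, with a lower end of -0.45 with a library left out and -0.78 over all 24 alternatives.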
